A study of Arabidopsis thaliana with 4 samples.

Results

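In 14-day-old seedlings of Arabidopsis thaliana, 484 places on the chromosome arms carried CG methylation in Col-0, the wild-type accession, and almost none in ndx1-4, a mutant of the homeobox gene NODULIN HOMEOBOX (NDX). Each genotype was profiled by bisulfite sequencing of 2 libraries, and the labels name no treatment for either. The labels name 1 mutant allele, and they do not say whether the 2 libraries of a genotype came from separate plants. The deposited table holds 1 methylation level per region and genotype, a fraction from 0 to 1 with both libraries combined, so no spread between libraries can be set beside any value and no test across libraries was possible. The labels give 15 to 17 M raw reads per library, and the depth behind each level is unknown.

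The 484 regions were taken from the authors' table of 7023 differentially methylated regions in all sequence contexts. They had to be CG regions on the 5 nuclear chromosomes, lower in ndx1-4 than in Col-0, with an ndx1-4 level under 0.1 and with no CHG or CHH region (H is A, C or T) sharing a base. Their midpoints had to lie outside pericentromeric intervals at 12.9 to 16.9 Mb of chromosome 1, 2.0 to 6.6 Mb of chromosome 2, 11.2 to 16.0 Mb of chromosome 3, 2.4 to 5.8 Mb of chromosome 4 and 10.1 to 14.4 Mb of chromosome 5. Of the 2867 CG regions listed on these chromosomes, 1254 (43.7%) were lower in ndx1-4, 700 (24.4%) were also under 0.1, and the 484 that met every condition made up 16.9%. The regions were chosen by these levels and their difference, so levels are given as a description and nothing is read from them. They are set beside 344 CG-only partial losses on the arms, where ndx1-4 kept a level of 0.1 or more, and beside their mirror image, 479 CG-only gains on the arms from Col-0 levels under 0.1.

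CG methylation in plants is copied after each round of replication by the maintenance methyltransferase MET1, which acts on the new strand opposite a methylated CG. It can therefore be passed on through cell division, and also from parent to offspring. On the chromosome arms of Arabidopsis it is found in 2 settings. In transposons and repeats it occurs together with CHG and CHH methylation and silencing, whereas in the transcribed part of many active genes it occurs in CG alone and is called gene body methylation. In DNA from seedlings with many cell types, an intermediate level in every cell and a high level in some cells cannot be told apart.

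Sequences of 6 regions are shown to make visible how many CG sites stood behind their levels. The first 5 are, on each chromosome, the region of at most 250 bp with the largest area statistic (the authors' score of a region) that lay inside a protein-coding gene and touched no untranslated sequence. These 5 had falls of −0.371 to −0.517, against a median of −0.386 over the 484. The sixth had the largest fall of all 484 and was chosen after its value was seen. All are the plus strand of TAIR10.1 from RefSeq, 5′ to 3′, with complete CG sites in capitals. They hold 6 to 15 CG sites each, against a median of 5 over the 484.
FH8 (chr1:26412703-26412877): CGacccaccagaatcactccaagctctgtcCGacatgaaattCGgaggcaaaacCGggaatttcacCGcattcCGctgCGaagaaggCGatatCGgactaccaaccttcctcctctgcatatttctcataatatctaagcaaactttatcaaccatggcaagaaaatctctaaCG
ARPC2B (chr2:14147640-14147711): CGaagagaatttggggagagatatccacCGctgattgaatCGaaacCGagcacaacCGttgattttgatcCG
AT3G24360 (chr3:8839837-8839986): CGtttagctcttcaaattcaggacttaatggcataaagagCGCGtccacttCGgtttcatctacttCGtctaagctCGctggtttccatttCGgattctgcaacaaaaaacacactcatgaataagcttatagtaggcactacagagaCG
AT4G10750 (chr4:6619568-6619656): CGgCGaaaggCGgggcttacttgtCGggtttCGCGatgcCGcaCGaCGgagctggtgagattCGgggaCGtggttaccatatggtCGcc
ADF10 (chr5:21258447-21258652): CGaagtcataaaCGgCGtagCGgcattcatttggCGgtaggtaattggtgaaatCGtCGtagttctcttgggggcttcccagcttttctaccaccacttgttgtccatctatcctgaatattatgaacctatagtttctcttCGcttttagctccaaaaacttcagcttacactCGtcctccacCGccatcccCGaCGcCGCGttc
Largest fall (chr5:14878717-14878820): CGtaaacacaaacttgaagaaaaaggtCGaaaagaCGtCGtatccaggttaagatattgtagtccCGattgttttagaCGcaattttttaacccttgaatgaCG

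The level at ADF10, an actin depolymerizing factor, went from 0.440 in Col-0 to 0.0222 in ndx1-4. The region was 206 bp long, lay wholly in coding sequence and held 24 listed cytosines, counted on both strands. At FH8, a formin of the family that nucleates actin filaments, 175 bp of coding sequence went from 0.404 to 0.0242. At ARPC2B, a subunit of the ARP2/3 complex that starts branched actin filaments, the printed 72 bp held 6 CG sites and went from 0.396 to 0.0253. That these 3 genes all belong to the actin machinery was seen after the choice and was not tested. At AT3G24360, whose RefSeq product is a Clp protease/crotonase family protein, 97 bp of coding sequence and 53 bp of intron went from 0.434 to 0.0231. AT4G10750, annotated as a phosphoenolpyruvate carboxylase family protein, went from 0.564 to 0.0470 over 89 bp with a GC content of 62.9%, the highest of the 484.

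Across the 484 regions, the Col-0 level had a median of 0.433 (95% interval of the median 0.406 to 0.452) and ran from 0.110 to 0.832. The ndx1-4 level had a median of 0.0339 and ran from 0.0112 to 0.0997. The Col-0 level was under 0.3 in 114 regions, from 0.3 to 0.5 in 192, from 0.5 to 0.7 in 148 and at 0.7 or more in 30. Most regions thus had an intermediate pooled level in Col-0. The 2 libraries cannot be told apart in it, so libraries with unlike levels could give the same value. In the partial losses the Col-0 median was 0.663 and the ndx1-4 median 0.195, a difference that the threshold on the ndx1-4 level favours and from which nothing is read. The median fall was −0.386 (−0.415 to −0.363) in the near-complete losses and −0.424 (−0.444 to −0.403) in the partial losses. A fall of at least 0.5 was seen in 136 of the 484 regions, and one of at least 0.2 in 434. No level in the whole table was exactly 0.

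**Figure D1:**
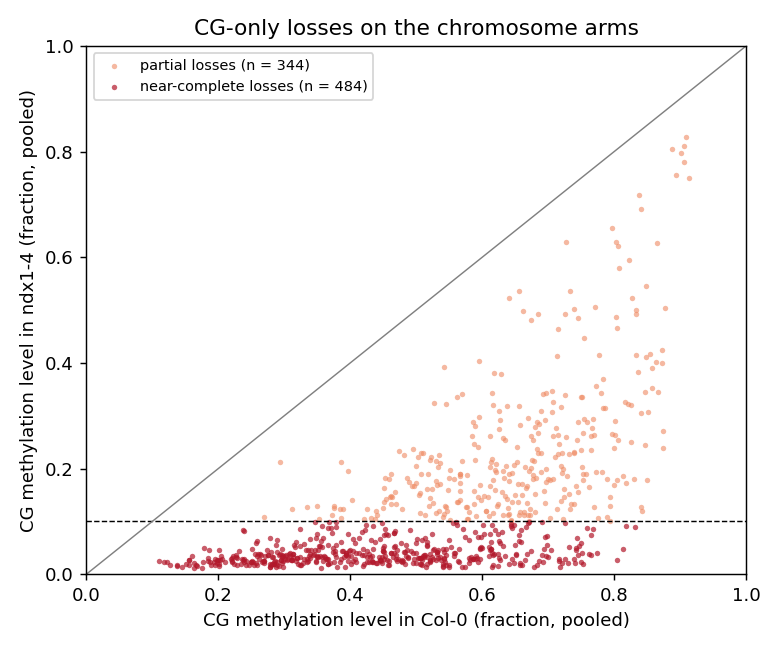
Pooled CG methylation level (fraction) in Col-0 on the x axis and in ndx1-4 on the y axis for each CG-only region of the arms that was lower in ndx1-4. The dashed line is the level of 0.1 that divides 484 near-complete losses (dark red) from 344 partial losses (orange), the grey line marks equal levels, and the near-complete losses spread over Col-0 levels from 0.110 to 0.832.

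Within the range allowed by the rule, ndx1-4 levels lay mainly at its lower end. They were under 0.02 in 65 regions, from 0.02 to 0.05 in 302 and from 0.05 to 0.1 in 117. The lowest was 0.0112, in AT1G30860, a RING/U-box protein gene, where Col-0 had 0.175. The next were 0.0123 in AT1G62310, a gene for a jumonji-domain protein of the family that removes histone methyl groups, and 0.0125 in AT1G32600. The 5 regions closest under the threshold had 0.0983 to 0.0997 and included DI19, a drought-induced zinc-finger protein gene (0.671 in Col-0, 0.0997 in ndx1-4), and CaS, the thylakoid calcium sensing receptor gene (0.378 and 0.0985). The others were AT4G09585 (0.560 and 0.0986), AT4G13440 (0.346 and 0.0983) and chr1:19233721-19233873 (0.368 and 0.0988). The 5 closest above it reached up to 0.103 and included RSH1, a homolog of the bacterial enzymes of the stringent response (0.794 and 0.102). The others were AT4G19080, with a Col-0 level of 0.643, chr5:19404720-19404886 (0.671 and 0.101), chr1:9291820-9291989 (0.643 and 0.103) and chr1:11812807-11812950 (0.551 and 0.103). These 10 regions were picked for their nearness to 0.1, and their Col-0 levels ran from 0.346 to 0.671 under the threshold and from 0.551 to 0.794 above it.

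The regions were short. Their median length was 96.5 bp (91 to 101) with a range of 51 to 488 bp, and the shortest region anywhere in the table was 51 bp. They held a median of 8 listed cytosines, and 127 of 484 (26.2%) rested on only 4 or 5. In the partial losses the median length was 105 bp (100 to 110) and in the gains from unmethylated DNA 98 bp (91 to 102). In the reference sequence, the 484 regions held a median of 5 CG sites each, or 5.0 CG sites per 100 bp, against 2.33 over all arm DNA. The density ran from 0.499 to 14.6 CG sites per 100 bp. All 484 regions began and ended on a CG cytosine, and no CG region with fewer than 4 cytosines was listed. A density above that of arm DNA is favoured by this, and nothing is read from it. The partial losses had 5.19 and the gains from unmethylated DNA 5.08 CG sites per 100 bp. In 204 regions (42.1%) fewer cytosines were listed than the reference has, and 85.1% of reference CG cytosines were listed over all 484. Why the others were left out is not given in the sources used here.

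Levels by number of listed cytosines are given as a description of the selected regions. The 127 regions with 4 or 5 cytosines had a median Col-0 level of 0.515 and a median fall of −0.476. The 89 regions with 13 or more had 0.355 and −0.295. The ndx1-4 median was 0.0332 in the former and 0.0318 in the latter. The smallest fall was −0.120 among regions with 4 or 5 cytosines and −0.0934 among those with 13 or more.

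Protein-coding genes held most of these regions. Of the 484, 329 (68.0%, 95% Wilson interval 63.7% to 72.0%) overlapped a protein-coding gene of the RefSeq annotation. Wilson intervals here cover only the counting of regions. The share was 70.3% of the 344 partial losses and 67.4% of the 479 gains from unmethylated DNA, both inside that interval, and 59.4% of all 2353 CG regions on the arms. Protein-coding genes make up 62.9% of the bases and 69.0% of the CG sites of the arms. Of the 2391 CG sites inside the near-complete losses, 68.0% lay in protein-coding genes, close to the share over all arm DNA.

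Inside genes, most regions touched coding sequence and few lay in introns alone. Of the 329 gene-overlapping regions, 289 (87.8%, 83.9% to 90.9%) touched coding sequence, 170 lay wholly in it, and only 19 lay wholly in introns. A single coding base sufficed for this count. At least 50% of the length was coding in 234 of the 484 (48.3%, 43.9% to 52.8%). Site by site, 53.3% of the CG sites inside the near-complete losses were coding, against 48.1% of the CG sites of the arms. The values were 7.95% against 9.78% for introns and 6.27% against 4.61% for 3′ untranslated sequence. For 5′ untranslated sequence they were 0.502% (12 sites) against 6.57%, and 8 regions touched such sequence. The gains from unmethylated DNA had 53.5% coding, 8.08% intronic, 6.04% 3′ untranslated and 1.11% 5′ untranslated sites. The partial losses had 53.9% coding, 9.40% intronic, 3.68% 3′ untranslated and 0.255% 5′ untranslated sites. The 3 sets were thus alike in coding share, with few sites in 5′ untranslated sequence in each. The partial losses stood apart in 3′ untranslated sequence. They also had more sites in pseudogenes, 3.93% against 1.63% in the near-complete losses and 1.62% in the gains.

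**Figure D2:**
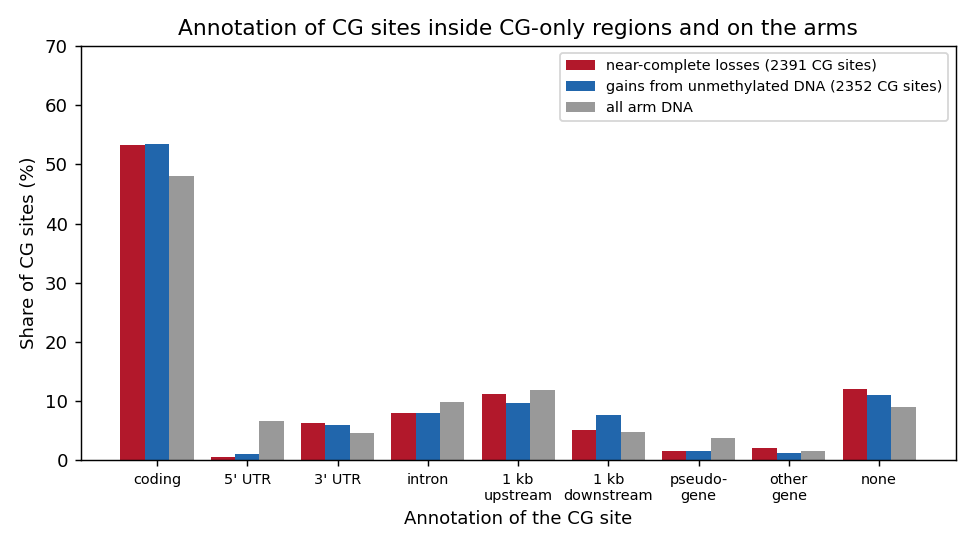
Share (%) of the CG sites inside 484 near-complete losses (red), inside 479 gains from unmethylated DNA (blue) and over all arm DNA (grey) by annotation of the site, each site counted once. Coding sequence holds 53.3% of the sites in the losses and 48.1% of those on the arms, and 5′ untranslated sequence 0.502% and 6.57%.

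Along the gene, the regions lay towards the 3′ end. The median midpoint of the 329 gene-overlapping regions was at 64.5% of the gene from its start (59.4% to 71.8%). The first 10% of the gene held 12 of them (3.65%, 2.10% to 6.27%) and the stretch from 80% to 90% held 58 (17.6%, 13.9% to 22.1%). The first 20% held 29 (8.81%) and the last 20% held 101 (30.7%). In bp, the median midpoint lay 1683 bp after the gene start and 840 bp before its end. Gains from unmethylated DNA had a median position of 64.0% and partial losses one of 68.3%. Over all CG regions on the arms that overlapped a gene it was 65.5% (62.9% to 68.1%). The near-complete losses were thus placed much like the other listed CG regions. Where CG sites lie along arm genes was not counted.

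**Figure D3:**
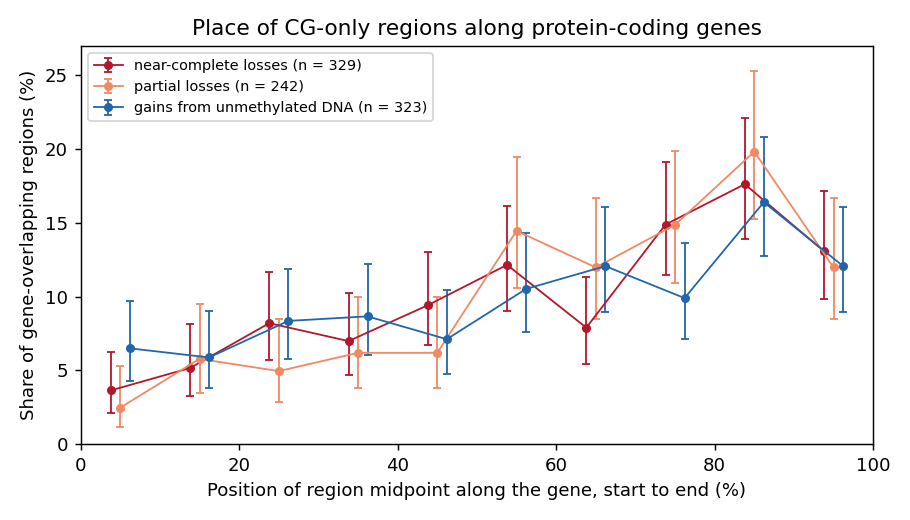
Share (%) of gene-overlapping regions by the position of their midpoint along the gene, in steps of 10% from start to end, for near-complete losses (329 regions, red), partial losses (242, orange) and gains from unmethylated DNA (323, blue); error bars are 95% Wilson intervals. The near-complete losses go from 3.65% in the first 10% of the gene to 17.6% between 80% and 90%.

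In total, 327 protein-coding genes overlapped a near-complete loss. Their median length was 2900 bp and their median number of exons 6, against 2097 bp and 4 for all 25995 protein-coding genes of the arms. Genes with a single exon made up 8.26% of the 327 and 18.7% of the arm genes. A longer gene offers more sequence for a region to fall in. Per Mb of gene sequence, genes under 1500 bp held 5.55 regions, genes of 1500 to 3000 bp 5.15, genes of 3000 to 5000 bp 6.32 and genes of at least 5000 bp 3.38. Counted in this way the longest genes were not ahead.

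Within a gene the loss was mostly a single region. The gains from unmethylated DNA were spread in the same way, with 323 gene-overlapping regions and 321 genes. Of the 327 genes with a near-complete loss, 320 held 1 such region and 7 held 2. TRN1, or TORNADO1, which encodes a leucine-rich repeat protein needed for leaf and root patterning, had the most CG losses of these 7, with 4. Both of its near-complete losses were coding. They went from 0.592 to 0.0308 over chr5:22498615-22498870 and from 0.591 to 0.0351 over chr5:22499273-22499350. The other 2 regions, nearer to the 3′ end, were partial and went from 0.506 to 0.116 and from 0.650 to 0.150. All 4 listed stretches of TRN1 were thus lower in ndx1-4, with Col-0 levels between 0.506 and 0.650.

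The other 6 genes with 2 regions had no further CG region of either direction. FH8 lost a second coding stretch 282 bp from the printed one, from 0.397 to 0.0336. TCP-1, the alpha subunit of the chaperonin that folds actin and tubulin, went from 0.516 to 0.0318 and, 698 bp away, from 0.615 to 0.0393. RAPTOR1, the partner protein of the TOR kinase, had its 2 regions at opposite ends of the gene, one in 3′ untranslated sequence (0.434 to 0.0909) and one in an intron near the start (0.241 to 0.0175). CIP4, which encodes a protein that binds the light-signalling repressor COP1, went from 0.429 to 0.0392 and from 0.619 to 0.0841 in its last part. AAP8, an amino acid permease gene, went from 0.366 to 0.0291 and from 0.321 to 0.0198, both in coding sequence. AT4G31110, of the wall-associated kinase family, went from 0.351 to 0.0453 and from 0.325 to 0.0180. Both regions of a gene started from levels within 0.2 of each other in all 7 genes. Over the 484 regions the lower and upper quartiles of the Col-0 level were 0.309 and 0.557. Regions of different genes can thus lie as close, and nothing is read from this.

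Single regions inside genes reached the same size of change as regions outside them. After the region outside genes whose sequence is printed above, which went from 0.804 to 0.0272, the next 4 falls in order of size were all inside genes. AT3G48830, of the tRNA nucleotidyltransferase/polyA polymerase family, went from 0.813 to 0.0477. EMB2820, of the cytidine/deoxycytidylate deaminase family, went from 0.832 to 0.0893 in an intron. FRS1, a member of the FAR1-related transcription factor family that derives from transposases, went from 0.774 to 0.0394. HST, or HASTY, the plant relative of exportin-5 that acts in the microRNA pathway, went from 0.752 to 0.0185. These 4 regions held only 4 to 6 listed cytosines each.

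By area statistic the order differed. Of the 10 regions with the largest values, 8 lay outside protein-coding genes. The largest, at chr3:11023752-11023957, lay 50 bp from AT3G29033 and went from 0.725 to 0.0970, and a CHG or CHH region lay 69 bp from it. The region with the largest fall, whose sequence is printed above, was also among the 10 and had such a region 81 bp away. At chr2:16957584-16957835, 46 bp from AT2G40630, the level went from 0.749 to 0.0234. At chr1:22984932-22985100, 510 bp upstream of PTR6, a gene of the peptide and nitrate transporter family, it went from 0.564 to 0.0243. At chr3:16564261-16564397, 484 bp from AT3G45220, it went from 0.716 to 0.0296. At chr1:6778091-6778178, 523 bp from GAMMA CA1, a gamma carbonic anhydrase of mitochondrial complex I, it went from 0.617 to 0.0181. The regions at chr4:158270-158646 and chr5:21623835-21624040 lay farther from genes, at 1894 bp from ATI2 and 4554 bp from CRF3, and went from 0.585 to 0.0291 and from 0.521 to 0.0237. The other 2 were ADF10 and a region of 365 bp at chr2:10149004-10149368, which went from 0.587 to 0.0296 and overlapped the end of AT2G23834, an uncharacterized gene, with most of its length beyond the gene.

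The same pattern held through the list. Among the 121 regions with the largest area statistics, 64 (52.9%, 44.0% to 61.6%) overlapped a protein-coding gene, and among the 121 with the smallest, 95 (78.5%, 70.4% to 84.9%) did. The former had a median of 13 cytosines and the latter of 5. The partial losses had 57.0% in their first 121 regions and 88.2% in their last 102. The gains from unmethylated DNA had 55.4% in their first 121 and 81.0% in their last 116. The gradient was therefore present in all 3 sets. A CHG or CHH region lay within 1 kb of 14 of the first 121 near-complete losses and of 3 of the last 121. For the gains from unmethylated DNA it was 11 of the first 121 and 1 of the last 116. The partial losses showed no such steady fall, with 8 of the first 121, 13 of the next 121 and 6 of the last 102.

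**Figure D4:**
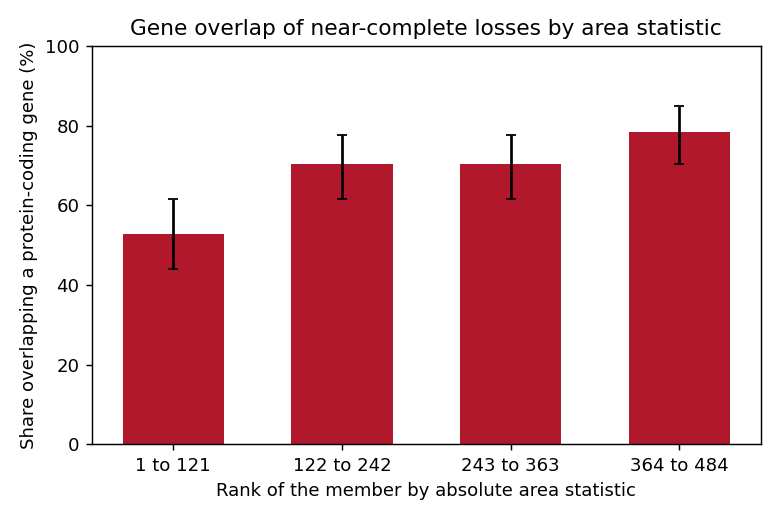
Share (%) of near-complete losses that overlap a protein-coding gene, for 4 groups of 121 regions ordered by absolute area statistic (largest on the left); error bars are 95% Wilson intervals. The share goes from 52.9% to 78.5%.

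Outside protein-coding genes there were 155 regions. With each given its highest-ranking annotation, 56 touched the 1 kb upstream of a gene, 20 the 1 kb downstream, 10 another type of gene, 7 a pseudogene, and 62 none of these. No transposon annotation was used, and whether the last 62 lie in transposons was not tested. The median distance from these 155 regions to the nearest protein-coding gene was 857 bp. Their Col-0 median was 0.378 and their ndx1-4 median 0.0293, against 0.446 and 0.0360 inside genes. Upstream regions had a Col-0 median of 0.355 (n = 56), coding regions 0.445 (n = 289) and intronic regions 0.510 (n = 19). The range was wide in each, from 0.138 to 0.769 upstream, from 0.123 to 0.817 in coding sequence and from 0.241 to 0.832 in introns. These ranges overlapped, and whether the groups differ was not tested.

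Most regions stood alone. The nearest other CG region of the table was a median of 11905 bp away, and in 36 of 484 (7.44%, 5.42% to 10.1%) it lay within 1 kb. In 21 of these 36 (58.3%) that neighbour was also a loss, against 19 of 29 (65.5%) for the partial losses, 13 of 44 (29.5%) for the gains from unmethylated DNA and 85 of 206 (41.3%) for all CG regions on the arms. Joining regions within 1 kb of each other gave 477 places, of which 7 held 2 regions and none more. The nearest CHG or CHH region was a median of 18200 bp away and lay within 1 kb of 29 regions (5.99%). For partial losses, another CG region lay within 1 kb of 8.43%, and for gains from unmethylated DNA of 9.19%.

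In 15 of the 327 genes, the loss stood beside a CG gain of any kind in the same gene. The share of arm genes with any CG gain was not counted, so the 15 cannot be set against it. The genes named here were chosen after their values were seen. In SOS3, the calcium sensor gene of salt tolerance, a region went from 0.260 to 0.0388 while another, 125 bp away, went from 0.0378 to 0.396. In MSL4, a mechanosensitive channel gene, a loss from 0.530 to 0.0263 lay 254 bp from a gain from 0.0411 to 0.445. In AT4G29920 the 2 regions were 112 bp apart and went from 0.178 to 0.0496 and from 0.206 to 0.454. In 5 of the 15 genes the gap was under 500 bp, and the widest was 5446 bp in TIL2, a gene for a catalytic subunit of DNA polymerase epsilon. Opposite changes thus occurred within one gene body. Genes that held a near-complete loss and a gain from unmethylated DNA numbered 7, which is 2.14% of the 327 and 2.18% of the 321 genes with such a gain. Among all protein-coding genes of the arms, 1.23% held such a gain and 1.26% a near-complete loss. Genes with a near-complete loss were longer than arm genes (median 2900 against 2097 bp), and the part of length in these counts was not tested.

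All 5 chromosomes contributed. There were 134 regions on chromosome 1, 60 on chromosome 2, 89 on chromosome 3, 74 on chromosome 4 and 127 on chromosome 5. Per Mb of arm, these were 5.07, 3.97, 4.77, 4.87 and 5.60, with 4.94 over all arms. The gains from unmethylated DNA numbered 136, 87, 94, 61 and 101, so that chromosomes 1, 2 and 3 had more such gains than near-complete losses and chromosomes 4 and 5 had fewer. In the 91 full 1 Mb windows of the arms, the count ran from 0 to 12 with a median of 5.

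The density was highest next to the pericentromeric intervals. In the first Mb there were 79 regions, or 7.90 per Mb, and in the second 66, or 6.60 per Mb. From 4 to 8 Mb the value was 4.61 per Mb, and beyond 8 Mb 3.74 per Mb. The partial losses went from 5.60 to 2.82 per Mb and the gains from unmethylated DNA from 6.80 to 3.81 per Mb over the same distances. Heterochromatin can extend past the borders of the rule, and no measure of it was used here.

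**Figure D5:**
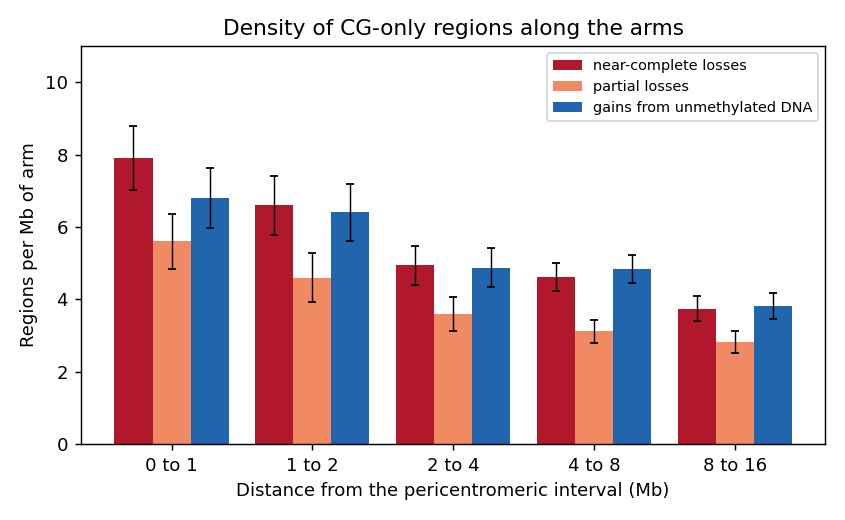
Number of regions per Mb of arm by distance (Mb) from the edge of the pericentromeric interval, for near-complete losses (red), partial losses (orange) and gains from unmethylated DNA (blue); error bars are the square root of each count divided by the Mb of arm. Near-complete losses go from 7.90 per Mb in the first Mb to 3.74 beyond 8 Mb, and the other sets fall along with them.

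The mutated gene itself was not among the 484. The CG region in NDX (AT4G03090), at chr4:1366817-1367392, went from 0.793 in Col-0 to 0.146 in ndx1-4 and so was a partial loss by the rule. The nearest near-complete loss lay 155 kb away, and there were 5 within 500 kb and 6 within 1000 kb of NDX, on either side together. For comparison, the density over all arms was 4.94 per Mb.

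Genes that make, remove or read DNA methylation were looked up by name. Of all protein-coding genes of the arms 1.26% overlapped a near-complete loss, so lists this short can be empty without standing apart. Of 13 genes of DNA methylation and demethylation, among them MET1, CMT3, DDM1 and ROS1, 0 overlapped a near-complete loss and 0 held any CG region. Of 14 genes of RNA-directed DNA methylation, 0 overlapped one. A single region lay within 1 kb of a gene of this list, at chr2:7096430-7096532, and went from 0.324 to 0.0862. It lay 748 bp upstream of DRD1, a chromatin remodeler of the pathway, and another gene, AT2G16385, was nearer to it. Of 9 genes of histone methylation and heterochromatin, 9 genes that include NDX, its partners, FLC and abscisic acid regulators, and 9 genes known from studied epialleles such as QQS and FWA, 0 overlapped a near-complete loss. Listed CG regions of other kinds were a gain in SUVH2, a gain in LHP1 and the loss in NDX. The lists leave out other genes of histone modification and chromatin. Of those, SUVR1, SUVR4, SDG38, the histone deacetylase gene HDA18 and the chromatin remodeling gene CHR24 each overlapped a near-complete loss. These genes are named after this was seen. Changes too small for the authors' thresholds are not visible here.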

How the data were processed

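Bisulfite sequencing libraries of 14-day-old Col-0 and ndx1-4 seedlings (2 per genotype, 15 to 17 M raw reads per the labels) were grouped by title. The submitters' processing notes name Bismark, without version, and the TAIR10 build; the region caller and its thresholds are not given in the sources used here. Methylation levels are fractions that the authors deposited as 1 value per region and genotype. The area statistic and the difference are scores deposited by the authors; differences were recomputed from the levels and matched the deposited ones within 1e-09. The table used here holds no coverage, so the depth behind each level is unknown.

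Coordinates were taken as 1-based and checked on RefSeq TAIR10.1, on which both ends of 100% of the 484 regions fell on a CG cytosine. Each base took the first that applied of coding, 5′ untranslated, 3′ untranslated, intron, pseudogene, other gene, 1000 bp upstream and 1000 bp downstream, and each region its highest-ranking base. Near-identical copies (95% identity over 80% of the region) were sought with blastn 2.17.0. Medians carry 95% order-statistic intervals and shares 95% Wilson intervals (Python 3.11.15, scipy 1.17.1). Membership and annotation functions were tested on simulated data. Regions and gene lists were chosen with earlier results of these data known. The text names the 10 regions with the largest area statistic, the 5 with the largest difference, the 5 on each side of the threshold, genes with 2 or more regions, and listed genes within 1 kb of one; others are marked as chosen later, as are the 3 with the lowest ndx1-4 level. Alternatives changed the level threshold, area statistic, cytosine number, distance to CHG or CHH regions, arm borders, chromosomes, overlap and neighbour distance. The separate per-context region lists were not used.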

Additional observations from a re-analysis of the deposited data

How the results depend on the processing

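Of 103 values under alternatives, 85 stayed within the interval of the reported value (for the count, within 1.5 times) and 18 moved. A change of sign was not possible: counts, lengths, levels and shares are not negative, and the rule fixes the sign of the difference. Leaving out any 1 chromosome, moving the arm borders 1 Mb outward and widening the distance to CHG or CHH regions to 500 bp moved none.

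With an ndx1-4 level under 0.05 the median Col-0 level was 0.404, and with a level under 0.2 it was 0.487 with a median difference of −0.416. In the upper 50% of arm CG regions by area statistic there were 226 regions with a median length of 114.5 bp, a median of 11 cytosines, 5.34 CG sites per 100 bp and 59.7% in protein-coding genes. With at least 10 cytosines there were 167 regions with a median Col-0 level of 0.368, a difference of −0.325, a length of 124 bp, 13 cytosines, 5.83 CG sites per 100 bp and another CG region within 1 kb of 4.19%. When 50% of the region had to be coding, 71.1% of gene-overlapping regions counted as coding. Another CG region lay within 500 bp of 4.34% and within 5000 bp of 29.1%. The settings by area statistic and cytosine number select longer regions by construction.

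No paired analysis was possible because the levels are pooled per genotype, and for the same reason leaving out a library was not run. The depth behind each level is unknown, which limits what small differences in level between regions show.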

Other observations

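The products of the 327 genes with a near-complete loss were counted by words chosen after the data were seen. Kinases made up 24 genes (7.34%), against 5.18% of the 25995 protein-coding genes of the arms. Transporters, permeases and channels made up 12 (3.67%, against 2.17%), and helicases and DNA repair proteins 6 (1.83%, against 0.642%). Uncharacterized or hypothetical proteins made up 16 (4.89%, against 10.03%), ribosomal proteins 1 (0.306%, against 1.27%) and F-box proteins 5 (1.53%, against 2.39%). Transcription factors or DNA-binding proteins made up 12 (3.67%, against 3.53%), pentatricopeptide or tetratricopeptide proteins 8 (2.45%, against 2.10%) and SET-domain or histone proteins 3 (0.917%, against 0.527%). Gene length differs between these families, and its part in the shares was not tested.

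A near-identical copy elsewhere in the genome was found for 10 of the 484 regions (2.07%), against 23 of the 344 partial losses (6.69%) and 13 of the 479 gains from unmethylated DNA (2.71%). The 10, named after this was seen, include regions in GER2, a germin-like protein gene, CYP71B19, a cytochrome P450 gene, and SAUR23, an auxin-responsive small up-regulated RNA gene of a multigene family, and their levels are uncertain, since reads of such copies are hard to place. Among CG sites of the 484 regions, 41.4% had A or T on both sides and 4.81% lay in CCGG, against 41.3% and 4.55% in the gains from unmethylated DNA.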
